A study of Mus musculus with 89 samples.

Results

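The Dlk1-Dio3 imprinted domain was followed through its 6 annotated long transcripts, Meg3, Rian, Mirg, Dlk1, Rtl1 and Dio3, in RNA-seq of mouse embryonic stem cells (ESCs) that had lost Esrrb, Nr5a2 or both. The 6 rows were taken by gene symbol from a table of 54146 gene rows by a rule that reads no measured value, although the domain was picked with earlier results of these data known. EKOiE cells lack endogenous Esrrb and carry a doxycycline (Dox)-inducible Esrrb transgene. EKOiE NrKO cells, made from them, also carry deletions on both Nr5a2 alleles in the exon that encodes the DNA-binding domain. The control state, +E+N, is EKOiE kept with Dox at 1 µg/ml, and −E is EKOiE after 2 days of Dox withdrawal. The NrKO line on Dox gives −N, and its withdrawal for 2 days gives −E−N. Endogenous Esrrb is therefore disrupted in all 4 states. Each state was sequenced in 2 replicates in FCS/LIF (serum with the cytokine LIF) and in 3 replicates in 2i/LIF (inhibitors of Mek and Gsk3 with LIF), which gives 20 libraries in 8 groups. The study describes its replicates as independent experiments and RNA-seq of NrKO cells from a single clone, while the labels name neither cultures nor clones, so the p-values measure only the spread between these libraries. Effects of the NrKO line as a clone cannot be told apart from those of Nr5a2 loss, nor those of medium from those of culture batch. All +E+N and −N libraries had Dox and no −E or −E−N library did. Effects of Dox itself therefore cannot be told apart from those of Esrrb loss.

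The domain is a classic example of genomic imprinting, in which the parental origin of a chromosome decides which copy of a gene is read. The maternal chromosome is known to make the non-coding RNAs Meg3, Rian and Mirg, which are hosts of small nucleolar RNAs and of a large miRNA cluster, and the paternal chromosome the messenger RNAs of Dlk1, Rtl1 and Dio3. Methylation of an intergenic control region on the paternal copy keeps the 2 sets apart, and loss of maternal RNA is a known defect of some cultured ESC and iPSC lines. No sequence difference between parental copies was measured here, so maternal and paternal below name the known origin of each transcript and not a measurement.

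In mm10 the domain spans chr12:109452823-110281097 from the start of Dlk1 to the end of Dio3, 828275 bp. Dlk1 (ENSMUSG00000040856, chr12:109452823-109463336) lies at its left end. Meg3 (ENSMUSG00000021268, chr12:109541001-109571726), Rian (ENSMUSG00000097451, chr12:109603940-109661716) and Mirg (ENSMUSG00000097391, chr12:109729764-109749460) follow on the same plus strand. Rtl1 (ENSMUSG00000085925, chr12:109589193-109600330) lies between Meg3 and Rian on the minus strand. Dio3 (ENSMUSG00000075707, chr12:110279068-110281097) is a gene of a single exon at the right end. RefSeq places 58 miRNA hairpins in the domain on this build (GRCm38.p6), 54 of them on the plus strand. Of these, 1 overlaps a Meg3 exon, 3 lie in Rian introns, 9 overlap exons and 5 lie in introns of Mirg, and 6 overlap an Rtl1 exon on the opposite strand.

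**Figure D1:**
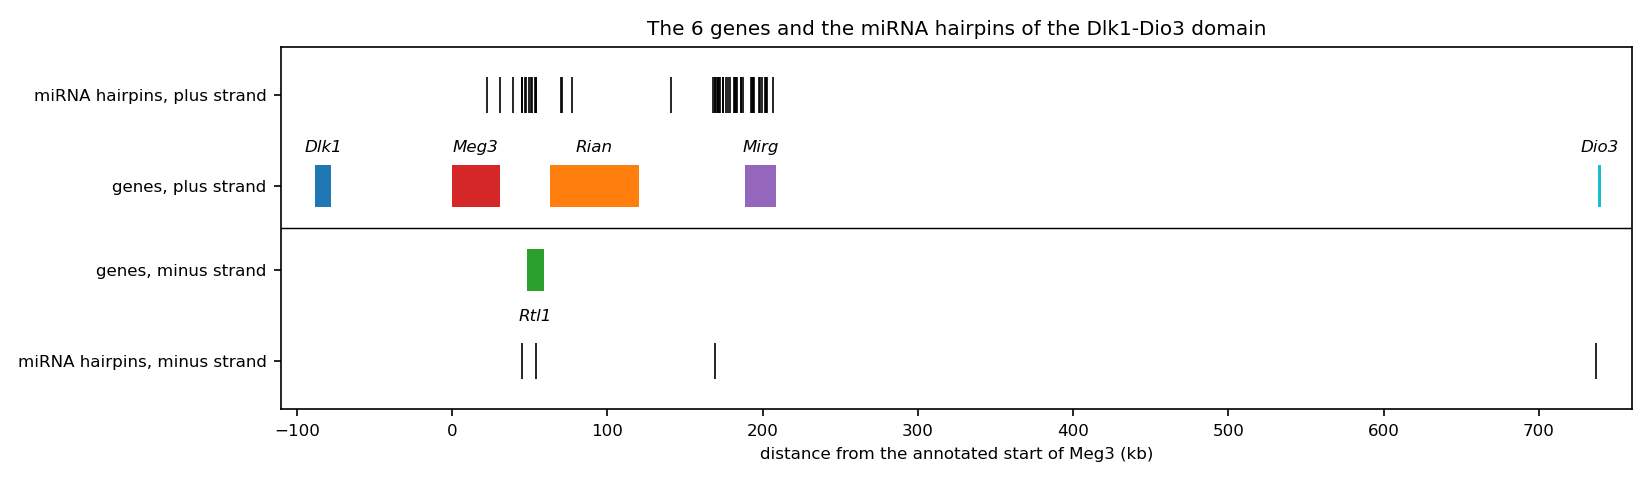
Map of the domain, with distance from the annotated start of Meg3 in kb on the x axis, the 6 genes as bars drawn to scale on their strand, and each of the 58 miRNA hairpins as a tick. Most hairpins sit in 2 clusters on the plus strand, one opposite Rtl1 and one that ends in Mirg.

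Mature miRNAs made from the maternal transcripts are shown here for what the long RNAs carry, since none of them was measured. The libraries were made from polyadenylated RNA, and all 67 miRNA rows and all 23 small nucleolar RNA rows of the domain held 0 counts in every library. The capitals mark the seed (bases 2 to 8), the part that pairs with target messenger RNAs. From the exon of Meg3 comes
mmu-miR-770-5p: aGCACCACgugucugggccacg
From the strand opposite Rtl1 come miRNAs that are, by their position, complementary to the Rtl1 messenger RNA:
mmu-miR-127-3p: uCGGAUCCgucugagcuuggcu
mmu-miR-136-5p: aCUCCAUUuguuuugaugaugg
mmu-miR-431-5p: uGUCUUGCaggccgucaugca
mmu-miR-433-3p: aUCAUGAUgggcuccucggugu
mmu-miR-434-3p: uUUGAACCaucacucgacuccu
From a Rian intron comes
mmu-miR-370-3p: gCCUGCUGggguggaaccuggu
and from Mirg come, among others,
mmu-miR-134-5p: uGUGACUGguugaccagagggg
mmu-miR-382-5p: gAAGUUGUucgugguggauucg
mmu-miR-410-3p: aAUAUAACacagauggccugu
Few of them share a seed. The 109 mature miRNA entries of the domain have 99 different seeds, and 10 seeds are held by more than 1 entry, with at most 2 to a seed. Among these, GCCCCUG belongs to mmu-miR-3070-5p alone, which is entered for 2 hairpins. Examples of a shared seed are
mmu-miR-379-5p: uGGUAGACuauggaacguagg
mmu-miR-1193-5p: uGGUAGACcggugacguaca
with GGUAGAC, and
mmu-miR-379-3p: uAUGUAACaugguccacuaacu
mmu-miR-411-3p: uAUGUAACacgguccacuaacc
with AUGUAAC, and miR-379, miR-411 and miR-1193 all lie between Rian and Mirg.

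Promoters from RefSeq, from 250 bases before to 50 after a start, were found for 5 of the 6 genes. The window of Mirg, chr12:109734731-109735030, lies inside Mirg as placed above and not at its start there. The window of Meg3 (chr12:109540746-109541045, plus strand) is shown because Rian and Mirg followed Meg3 through the libraries, and that of Dio3 (chr12:110278980-110279279, plus strand) because Dio3 had the largest fold change of the 6 among the comparisons made here. Capitals mark TGACGTCA, a palindrome known as the cyclic AMP response element, and TATAAA or its reverse complement TTTATA:
Meg3: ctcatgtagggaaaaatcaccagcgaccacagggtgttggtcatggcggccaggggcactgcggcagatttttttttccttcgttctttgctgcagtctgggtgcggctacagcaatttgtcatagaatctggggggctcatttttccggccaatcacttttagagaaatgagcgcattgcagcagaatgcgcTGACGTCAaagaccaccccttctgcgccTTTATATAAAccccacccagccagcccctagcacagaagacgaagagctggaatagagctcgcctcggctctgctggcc
Dio3: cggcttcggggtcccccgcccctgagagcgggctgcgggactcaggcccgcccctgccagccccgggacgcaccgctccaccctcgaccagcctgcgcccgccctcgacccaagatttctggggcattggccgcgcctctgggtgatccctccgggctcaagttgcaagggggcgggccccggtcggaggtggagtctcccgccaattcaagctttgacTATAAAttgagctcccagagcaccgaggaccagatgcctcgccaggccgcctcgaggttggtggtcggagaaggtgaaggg
In Meg3, TGACGTCA begins 57 bases before the start, and TTTATA and TATAAA overlap from 29 bases before it. In Dio3, TATAAA begins 31 bases before the start. Among 32851 promoter windows of this length, 1.79% hold TGACGTCA and 13.6% hold TATAAA on either strand. The letters TCAAGGTCA and TCAAGGCCA, which Esrrb and Nr5a2 are known to bind, were searched on both strands and are in none of the windows of the 5 genes, as against 0.423% and 0.591% of all windows. A second Meg3 window, at an inner start, holds the shorter AAGGTCA, as do 4.72% of all windows. Over the whole domain there were 12 matches to TCAAGGTCA and 23 to TCAAGGCCA, or 1.45 and 2.78 per 100 kb, against 2.16 and 3.91 per 100 kb of chromosome 12. Of these matches, 2 lie in Mirg and 1 in Meg3. A match is a description of the letters and not evidence of binding.

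The estimated counts of a library summed to 36514172 to 45443379 in FCS/LIF and to 26653035 to 32526534 in 2i/LIF, and counts of replicates differed beyond sampling noise. Esrrb, the targeted gene, was at 271 and 352 CPM (counts relative to the library total after TMM scaling) in +E+N and at 65.1 and 74.2 in −E in FCS/LIF. In 2i/LIF the fall was smaller, with 515 to 608 CPM in +E+N, 380 to 441 CPM for −E and 104 to 171 CPM for −E−N, and the table does not separate reads of the transgene from those of the endogenous gene. Nr5a2 in 2i/LIF was at 61.8 to 80.2 CPM in +E+N and 63.9 to 78.4 in −N, so the counts, which include transcript from the disrupted alleles, do not check the labels of the NrKO libraries there. The undifferentiated ESC markers Pou5f1, Sox2, Nanog, Zfp42, Klf4, Tfcp2l1, Utf1 and Fgf4 were detected in every library, with a summed level of 2510 to 2760 TPM (abundance per transcript length, scaled to the same total in every library) in +E+N cells in 2i/LIF and 1270 to 1710 TPM in −E−N. In bulk RNA, fewer cells of a type and less RNA per cell cannot be told apart.

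Per length of transcript the maternal RNAs far exceeded the paternal ones in every library. Meg3, Rian and Mirg together held 97.67% to 99.61% of the TPM of the 6 genes. Rian and Meg3 were among the abundant RNAs of these cells, with Meg3 ranked between 356 and 1472 and Rian between 318 and 1188 of all genes by TPM. In +E+N cells in FCS/LIF, Rian was at 261 ± 15.1 TPM (SD, n = 2), Meg3 at 218 ± 18.9 and Mirg at 42.6 ± 3.10. Dlk1 was at 2.36 ± 0.0707 TPM there, Dio3 at 1.31 ± 0.205 and Rtl1 at 0.585 ± 0.0212. The same order from Rian to Rtl1 held in 2i/LIF, where +E+N cells had 190 ± 16.9 TPM of Rian (SD, n = 3), 156 ± 11.2 of Meg3 and 0.213 ± 0.0321 of Rtl1. There Dlk1 (1.22 ± 0.701 TPM) and Dio3 (1.08 ± 0.617) did not differ beyond their spread. All 6 genes passed the filter of 20 counts in every replicate of at least 1 group in both media, and Dlk1, Rtl1 and Dio3 in 2i/LIF were measured with 14 to 118 counts a library, against 2458 to 12896 for Meg3 and Rian.

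**Figure D2:**
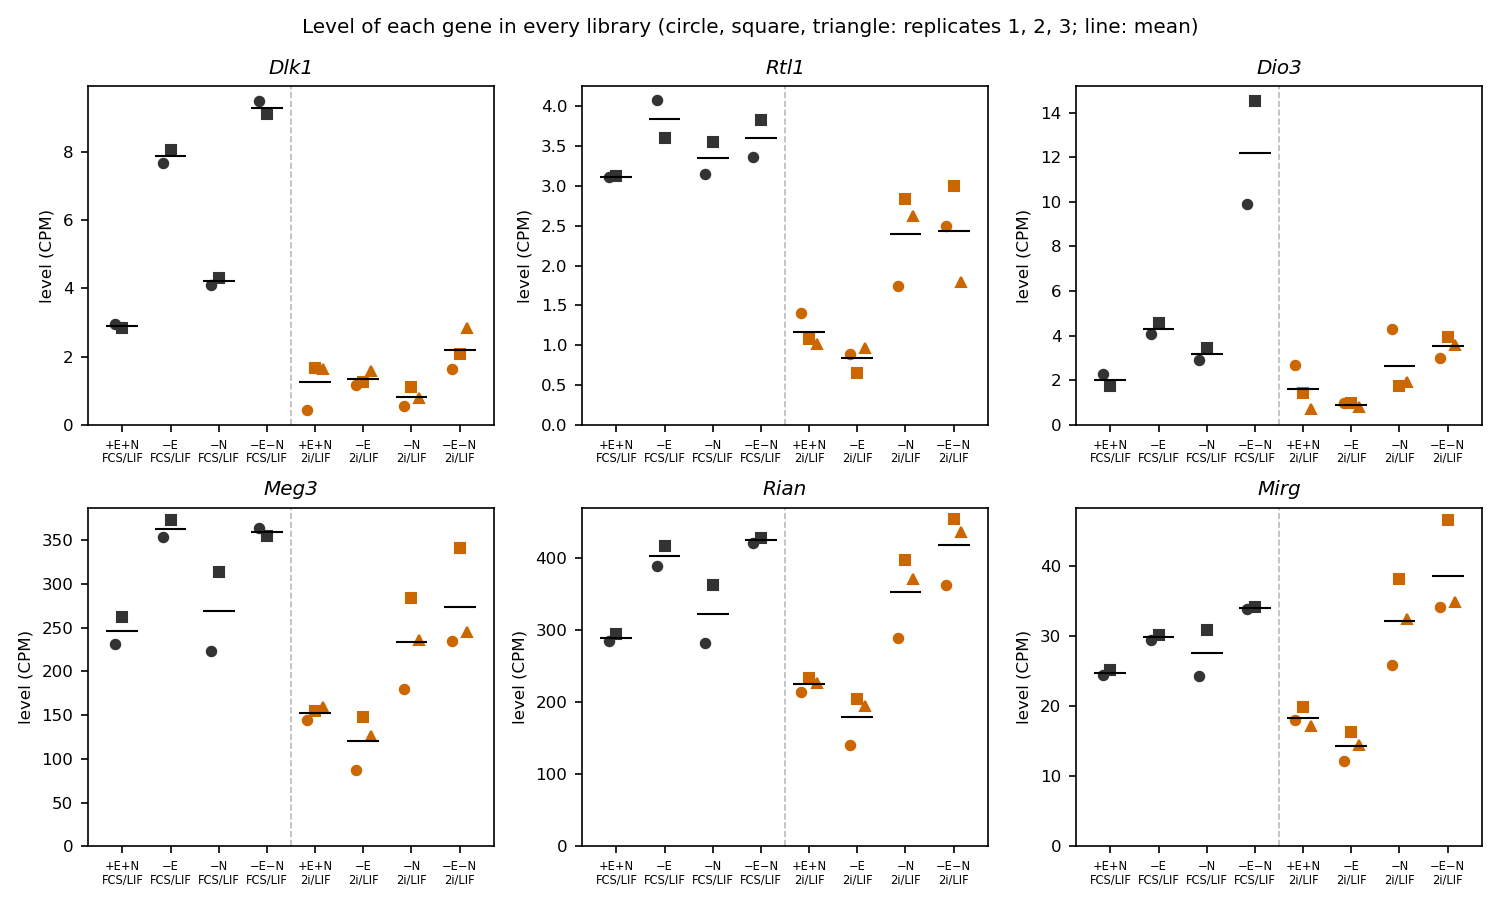
Level of each gene in CPM (y axes, from 0) in each of the 20 libraries, by state and medium (x axis), with replicates 1, 2 and 3 as circle, square and triangle, FCS/LIF in black, 2i/LIF in orange and the mean as a line. Dlk1 and Dio3 stand highest in −E−N in FCS/LIF, whereas Meg3, Rian, Mirg and Rtl1 in 2i/LIF stand higher in −N and −E−N than in +E+N and −E.

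In FCS/LIF, Dlk1 rose after loss of Esrrb, and Dlk1 and Dio3 rose after loss of both factors. These are 2 paternal genes at opposite ends of the domain. By edgeR the maternal RNAs between them were also higher than in the control, by less than 1.5-fold. This contrast depended on the scale and on the fold change limit. In TPM, Rian was at 250.64 and 272.01 in +E+N and at 428.15 and 421.11 in −E−N. On that scale the means of Rian and Meg3 in −E−N were more than 1.5-fold those in +E+N, and that of Mirg less. In −E, 1 of the 6 genes was called (false discovery rate under 0.01 and fold change over 1.5) against 5.76% of all 15636 genes tested (3.23% called higher), and in −E−N 2 of the 6 against 18.8% (12.4% called higher). Both limma fits, made on TPM, called 3 of the 6 in −E−N, where they called 15.2% and 17.4% of all genes. The estimates of all 6 were above 0 in both comparisons, with a median log2 fold change of 0.5 in −E and 0.53 in −E−N, where the median of all genes was -0.003 and 0.

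Dlk1, a membrane protein of the Delta family that is known to modulate Notch signalling and to hold back adipocyte differentiation, was at 2.95 and 2.84 CPM in +E+N in FCS/LIF. Levels in −E were 7.67 and 8.07 CPM, those in −N 4.11 and 4.32, and −E−N cells had 9.48 and 9.12. No 2 of these states overlapped. Dlk1 differed from +E+N by a log2 fold change of 1.42 in −E (2.68-fold, standard error 0.128, adjusted p = 0.00016 by edgeR's quasi-likelihood test, Benjamini-Hochberg adjusted, n = 2 in each state). In −E−N it was 1.66 (3.17-fold, standard error 0.128, adjusted p = 2.19e-05 by the same edgeR test). The difference of −N from +E+N was 0.52 (adjusted p = 0.0864 by the same edgeR test), and that of −E−N from −E 0.24, with a 95% interval of -0.03 to 0.51. Esrrb withdrawal in NrKO cells raised Dlk1 as well, with a log2 fold change of 1.14 between −E−N and −N (adjusted p = 0.000303 by the same edgeR test).

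Dio3, a deiodinase that inactivates thyroid hormone, was at 2.30 and 1.74 CPM in +E+N in FCS/LIF. Levels in −E were 4.08 and 4.55 CPM, those in −N 2.91 and 3.44, and −E−N cells had 9.88 and 14.5. Both −E−N libraries stood above all others, and the 2 differed from each other by more than the libraries of any other state in this medium. The log2 fold change of −E−N against +E+N was 2.58 (5.97-fold, standard error 0.229, adjusted p = 4.54e-05 by edgeR's quasi-likelihood test, Benjamini-Hochberg adjusted). Against −N it was 1.94 (adjusted p = 0.000357, same edgeR test) and against −E 1.5 (adjusted p = 0.00223, same edgeR test). The last call was lost without replicate 1 of −E (1.40, adjusted p = 0.0381 by edgeR), without replicate 2 of −E (1.56, adjusted p = 0.0184) and without replicate 2 of −E−N (1.17, adjusted p = 0.0246). In −E alone the change was 1.08 (2.11-fold, adjusted p = 0.0133 by edgeR), short of the limit, and it passed the limit in DESeq2 (adjusted p = 0.000434) and 3 other settings. Of all genes, 10.1% were called between −E−N and −N (6.57% higher), where 2 of the 6, Dlk1 and Dio3, were called higher, and 5.05% between −E−N and −E (3.52% higher), where 1 of the 6, Dio3, was.

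Meg3, the non-coding RNA whose transcription starts nearest the imprinting control region, was at 231 and 262 CPM in +E+N in FCS/LIF. Levels in −E were 353 and 373 CPM, those in −N 223 and 314, and −E−N cells had 364 and 355. The libraries of −E and −E−N lay above those of +E+N, and the 2 libraries of −N spanned them. Its log2 fold change was 0.54 in −E (adjusted p = 0.0246 by edgeR) and 0.53 in −E−N (adjusted p = 0.0119 by edgeR). Rian, host of small nucleolar RNAs, rose from 285 and 294 CPM in +E+N to 420 and 428 in −E−N, and Mirg, host of miRNAs, from 24.4 and 25.1 to 33.8 and 34.2. These 2 changes passed the false discovery rate, at log2 fold changes of 0.53 for Rian (adjusted p = 0.00271, edgeR) and 0.44 for Mirg (adjusted p = 0.00838, edgeR), but not the fold change limit. Rtl1, a retrotransposon-derived protein needed in the placenta, had estimates of 0.28 in −E and 0.19 in −E−N, with a 95% interval of -0.18 to 0.56 in the latter.

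In −N cells in FCS/LIF 0 of the 6 genes were called by edgeR, where 0.173% of all genes were, and 0 by DESeq2 or limma. The estimates lay between 0.09 for Rtl1 and 0.64 for Dio3, all above 0. Dlk1 and Dio3 were at an unadjusted p under 0.05 by edgeR, as were 2550 of all 15636 genes. The estimates of Meg3, Rian, Mirg and Rtl1 turned below 0 without replicate 2 of −N, to -0.17, -0.06, -0.05 and -0.01. Without this library Meg3 and Rian were also called between −E−N and −N, at log2 fold changes of 0.70 (adjusted p = 0.000904 by edgeR) and 0.59 (adjusted p = 0.000699 by edgeR).

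**Figure D3:**
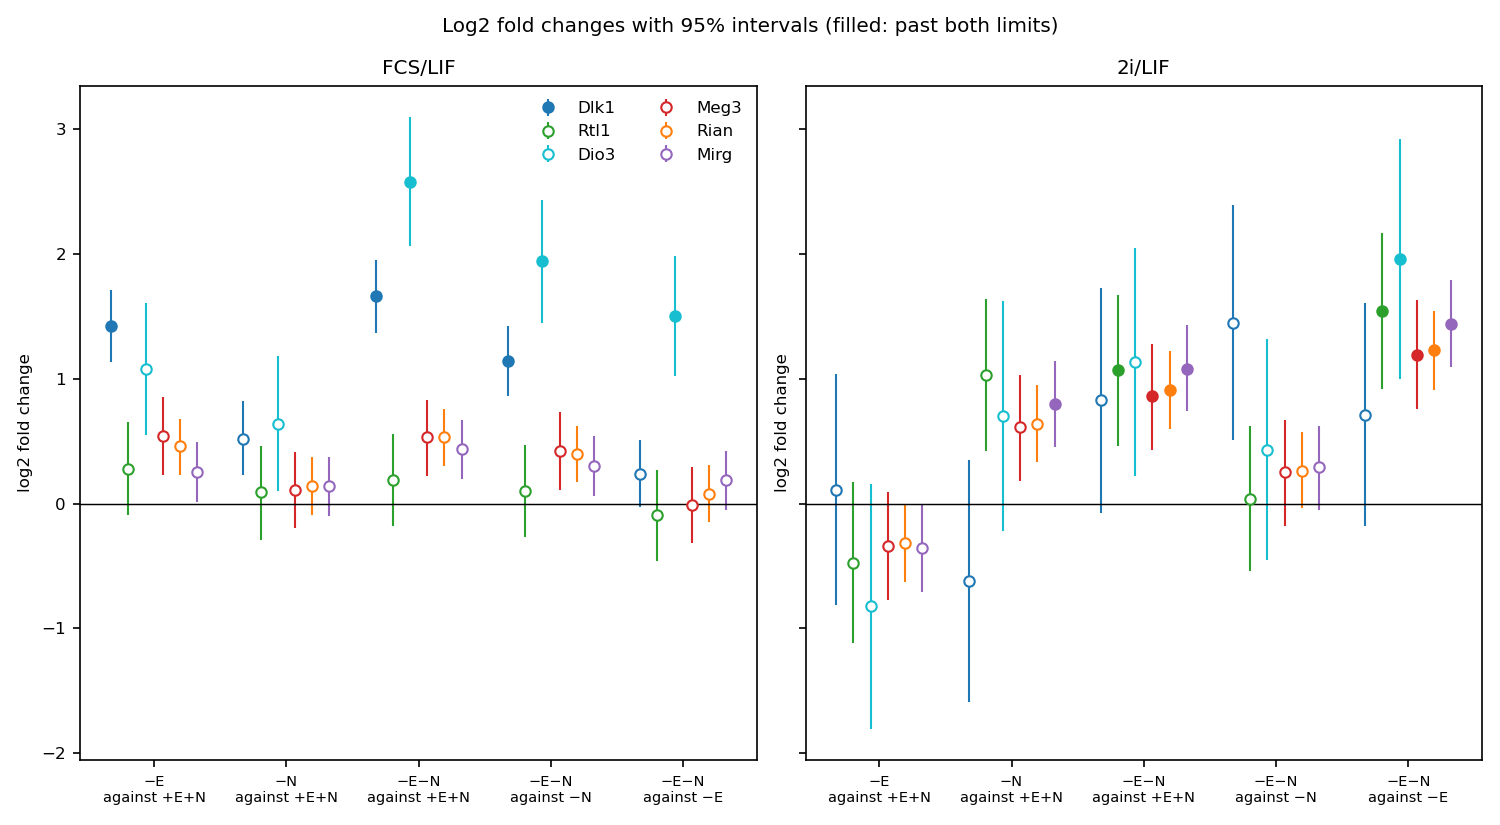
Log2 fold changes of the 6 genes (y axis) in 5 comparisons of states (x axis) in FCS/LIF (left) and 2i/LIF (right), with 95% intervals from the edgeR fits and filled points for genes past both limits. Dlk1 and Dio3 lead in FCS/LIF, and in 2i/LIF all filled points but 1, Mirg in −N, are in comparisons of −E−N with +E+N or −E.

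In 2i/LIF the genes called against the control were the maternal RNAs and Rtl1, all higher and all in states of the NrKO line. In −E−N, 4 of the 6 genes were called higher than in +E+N, where 18.6% of all 14355 genes were called and 9.06% called higher. Both limma fits called 2 of these 4, Rian and Mirg, where they called 14.6% and 16.1% of all genes. In −N, 1 of the 6 was called higher, where 3.65% of all were called and 1.61% called higher, and in −E 0 of the 6, where 1.55% were. The median log2 fold change of the 6 was -0.35, 0.67 and 0.99 for −E, −N and −E−N, against 0.014, -0.003 and 0.01 over all genes.

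Mirg in 2i/LIF was at 18.0, 19.9 and 17.2 CPM in +E+N and 12.2, 16.3 and 14.5 after withdrawal of Esrrb. NrKO cells had 25.8, 38.1 and 32.4 CPM with Dox and 34.2, 46.6 and 34.9 without it. The libraries of −N and −E−N lay above all of +E+N and −E, and the 2 NrKO states overlapped. Relative to +E+N, Mirg had a log2 fold change of 0.80 in −N (1.74-fold, standard error 0.159, adjusted p = 0.00726 by edgeR's quasi-likelihood test, Benjamini-Hochberg adjusted, n = 3 in each state). It was 1.08 in −E−N (2.12-fold, standard error 0.158, adjusted p = 0.000169 by the same edgeR test). The call in −N was lost without any single library of +E+N or without replicate 2 or 3 of −N, with adjusted p between 0.0204 and 0.0364 by edgeR and log2 fold changes between 0.66 and 0.86, and in both limma fits (0.79 and 0.80, adjusted p = 0.0119 and 0.0116).

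Rian in 2i/LIF was at 214, 233 and 227 CPM in +E+N and 141, 205 and 194 after withdrawal of Esrrb. NrKO cells had 289, 397 and 371 CPM with Dox and 362, 454 and 436 without it. Each NrKO library again lay above each EKOiE library, and replicate 1 was the lowest of its state in all 4 states. The log2 fold change was 0.64 in −N (adjusted p = 0.0127 by edgeR, not called) and 0.91 in −E−N (1.88-fold, standard error 0.143, adjusted p = 0.000295 by edgeR). The value in −N passed the limit without replicate 1 of −N (0.77, adjusted p = 0.00644 by edgeR) and in DESeq2 (adjusted p = 0.000263).

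Meg3 in 2i/LIF was at 144, 155 and 159 CPM in +E+N and 87.8, 148 and 126 after withdrawal of Esrrb. NrKO cells had 180, 284 and 236 CPM with Dox and 235, 341 and 245 without it. It followed Rian and Mirg, with every NrKO library above every EKOiE library. The log2 fold change was 0.61 in −N (1.52-fold, adjusted p = 0.0716 by edgeR) and 0.86 in −E−N (1.81-fold, standard error 0.197, adjusted p = 0.00412 by edgeR). The call in −E−N was lost without any single library of +E+N or without replicate 2 of −E−N, with adjusted p between 0.0121 and 0.0224 and log2 fold changes between 0.66 and 0.89, and in both limma fits (0.81 and 0.82, adjusted p = 0.0151 and 0.0147).

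Rtl1, known to be made from the other parental copy, had its high and low libraries in the same states as the maternal RNAs. It had 18 to 85 counts a library here, and 0.00437 to 0.0141 counts for each count of Meg3 over the 20 libraries. Whether reads of transcripts from the opposite strand add to its counts was not tested. Rtl1 was at 1.41, 1.08 and 1.01 CPM in +E+N and 0.893, 0.647 and 0.969 after withdrawal of Esrrb. NrKO cells had 1.74, 2.84 and 2.62 CPM with Dox and 2.5, 3.0 and 1.79 without it. All 6 NrKO libraries were above all 6 EKOiE libraries. The log2 fold change was 1.03 in −N (2.04-fold, adjusted p = 0.0336 by edgeR, not called) and 1.07 in −E−N (2.09-fold, standard error 0.278, adjusted p = 0.00853 by edgeR). The latter call was lost without any single library of +E+N or without replicate 1 or 2 of −E−N, with adjusted p between 0.0107 and 0.0408 and log2 fold changes between 0.88 and 1.23. In limma it was 0.26 on log2(TPM + 1) and 0.81 on log2(TPM + 0.1) and not called (adjusted p = 0.0374 and 0.0243).

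Dlk1 and Dio3 varied between replicates in 2i/LIF, and neither was called against +E+N. Dio3 was at 2.70, 1.41 and 0.731 CPM in +E+N and 0.964, 0.970 and 0.796 after withdrawal of Esrrb. NrKO cells had 4.28, 1.73 and 1.91 CPM with Dox and 3.02, 3.95 and 3.58 without it. Replicate 1 was the highest in both +E+N and −N, and the −E−N libraries lay above those of +E+N. The log2 fold change of −E−N against +E+N was 1.13 (adjusted p = 0.0469 by edgeR), and 1.73 without replicate 1 of +E+N, where it was called (adjusted p = 0.00701 by edgeR). Dlk1 was at 0.449, 1.67 and 1.64 CPM in +E+N and 1.18, 1.26 and 1.59 after withdrawal of Esrrb. NrKO cells had 0.544, 1.11 and 0.786 CPM with Dox and 1.64, 2.08 and 2.84 without it. It is the gene of the 6 whose estimate in −N was below 0 (-0.62, 95% interval -1.59 to 0.35). Between −E−N and −N it was 1.45 (adjusted p = 0.0348 by edgeR). With no replicate block, 0 of the 6 were called there by edgeR, DESeq2 or limma, against 6.76% of all genes by edgeR. Of the 6, Dlk1 alone was at an unadjusted p under 0.05 there by edgeR, as were 4687 of all 14355 genes. The counts and TPM of Dlk1 did not rank the −N libraries alike, with replicate 1 lowest by CPM and highest by TPM, at 1.28 TPM against 1.11 and 0.62.

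Loss of Esrrb alone in 2i/LIF left 5 of the 6 estimates below 0, between -0.32 for Rian and -0.82 for Dio3, with Dlk1 at 0.11. None was called by edgeR, DESeq2 or limma. Rian and Mirg were at an unadjusted p under 0.05 by edgeR, as were 2917 of all 14355 genes. Loss of Nr5a2 on top of Esrrb, the comparison of −E−N with −E, gave the largest median of the 6 in this medium (1.33), with 5 of the 6 genes called higher where 13.1% of all genes were called and 6.90% called higher. The log2 fold changes were 1.19 for Meg3 (adjusted p = 0.000734), 1.23 for Rian (adjusted p = 6.07e-05), 1.44 for Mirg (adjusted p = 4.03e-05), 1.54 for Rtl1 (adjusted p = 0.00154) and 1.96 for Dio3 (adjusted p = 0.00502), all by edgeR's quasi-likelihood test, Benjamini-Hochberg adjusted. For Meg3, Rian, Mirg and Rtl1 the call stood with each library left out in turn. That of Dio3 was lost without any of replicates 1, 2 and 3 of −E or replicates 2 and 3 of −E−N, at adjusted p between 0.0135 and 0.0215 and log2 fold changes between 1.86 and 2.01. This comparison shares its −E−N libraries with that against +E+N, and the 3 comparisons with +E+N share their control libraries.

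The interaction asks whether the joint loss departs from the sum of both single losses on the log scale. With no replicate block it was called by edgeR for 0 of the 6 genes in both media (DESeq2 and limma also 0), where 0.032% of all genes were called in FCS/LIF and 0.307% in 2i/LIF. In FCS/LIF the estimate for Dio3 was 0.86 with a 95% interval of 0.14 to 1.58, the only one of the 6 at an unadjusted p under 0.05. Of all 15636 genes, 1384 were under this limit there by edgeR. In 2i/LIF all 6 estimates were above 0, between 0.51 and 1.33. There 3 (Dlk1, Rian and Mirg) were at an unadjusted p under 0.05 by edgeR, as were 1962 of all 14355 genes.

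Several of the genes were higher in FCS/LIF, and in −E cells all 6 were. In +E+N, Dlk1, Meg3 and Rtl1 were called higher in FCS/LIF than in 2i/LIF, 3 of the 6, where 34.7% of all 16147 genes were called and 17.5% called higher. The log2 fold changes were 1.22 for Dlk1 (adjusted p = 0.00721), 0.69 for Meg3 (adjusted p = 0.00781) and 1.41 for Rtl1 (adjusted p = 0.000139) by edgeR. The calls of Dlk1 and Meg3 were lost without either FCS/LIF replicate or without 2i/LIF replicate 1, and that of Meg3 also without 2i/LIF replicate 2 or 3. In those fits the values lay between 0.81 and 1.26 for Dlk1 and between 0.61 and 0.78 for Meg3. Limma on log2(TPM + 1) called 0 of the 3 and limma on log2(TPM + 0.1) called 1, Rtl1. These fits called 26.5% and 31.8% of all genes. In −E all 6 were called higher in FCS/LIF, where 38.8% of all genes were called and 19.8% called higher, with log2 fold changes from 1.06 for Mirg to 2.55 for Dlk1. In −N and −E−N, where 31.6% and 35% of all genes were called (16.6% and 18.9% higher), Dlk1 was 5.18-fold and 4.25-fold higher in FCS/LIF, whereas Rian differed by -0.13 and 0.02 on the log2 scale, with 95% intervals of -0.44 to 0.19 and -0.29 to 0.34. Dio3 was also called in −E−N, at 1.79 (adjusted p = 0.000511 by edgeR), and lost this call without replicate 2 of −E−N in FCS/LIF (1.48, adjusted p = 0.0133 by edgeR).

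The difference of a response between media was tested directly, as the response in FCS/LIF minus that in 2i/LIF. For −E it was above 0 for all 6 genes, from 0.63 for Mirg to 1.93 for Dio3. All 6 were at an unadjusted p under 0.05 by edgeR, as were 2834 of all 16147 genes. However, 0 were called by edgeR or limma and 1 by DESeq2, where edgeR called 1.06% of all genes and DESeq2 3.29%. The count depended on the filter and on the replicate block. Without the filter on low counts edgeR called 3 of the 6 for −E, 3 for −N and 2 for −E−N. In the same fit it called 2.22%, 2.55% and 9.37% of all genes. The smallest adjusted p was that of Rian (0.0469 by edgeR, a difference of 0.79 with a 95% interval of 0.35 to 1.24). For −N, 0 of the 6 were called by edgeR, DESeq2 or limma (0.743% of all genes by edgeR). By edgeR, 4 of the 6 were at an unadjusted p under 0.05, as were 2476 of all 16147 genes. For −N, 5 estimates were below 0, of which that of Dio3 was -0.05. For −E−N, 0 were called by edgeR or DESeq2 and 1 by limma on log2(TPM + 1), beside 13.2% of all genes by edgeR and 13.8% by this limma fit. By edgeR, 3 of the 6 were at an unadjusted p under 0.05 for −E−N, as were 5729 of all 16147 genes. There Dio3 had a difference of 1.48 and Mirg one of -0.61.

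The ratios among the 3 maternal RNAs varied less over the libraries than those of the paternal genes to Meg3. Over the 20 libraries, Rian had 1.1 to 1.78 counts for each count of Meg3, a 1.62-fold range, and Mirg 0.081 to 0.146, a 1.80-fold range. The ratio to Meg3 ranged 3.23-fold for Rtl1, 8.64-fold for Dlk1 and 8.89-fold for Dio3, which have far fewer counts. The ratio of Rian to Meg3 was lower in every FCS/LIF library (1.1 to 1.27) than in every 2i/LIF library (1.33 to 1.78), with no overlap and no test made. The ratio of Mirg to Meg3 in 2i/LIF was 0.108 to 0.129 in +E+N and 0.137 to 0.146 in −E−N.

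**Figure D4:**
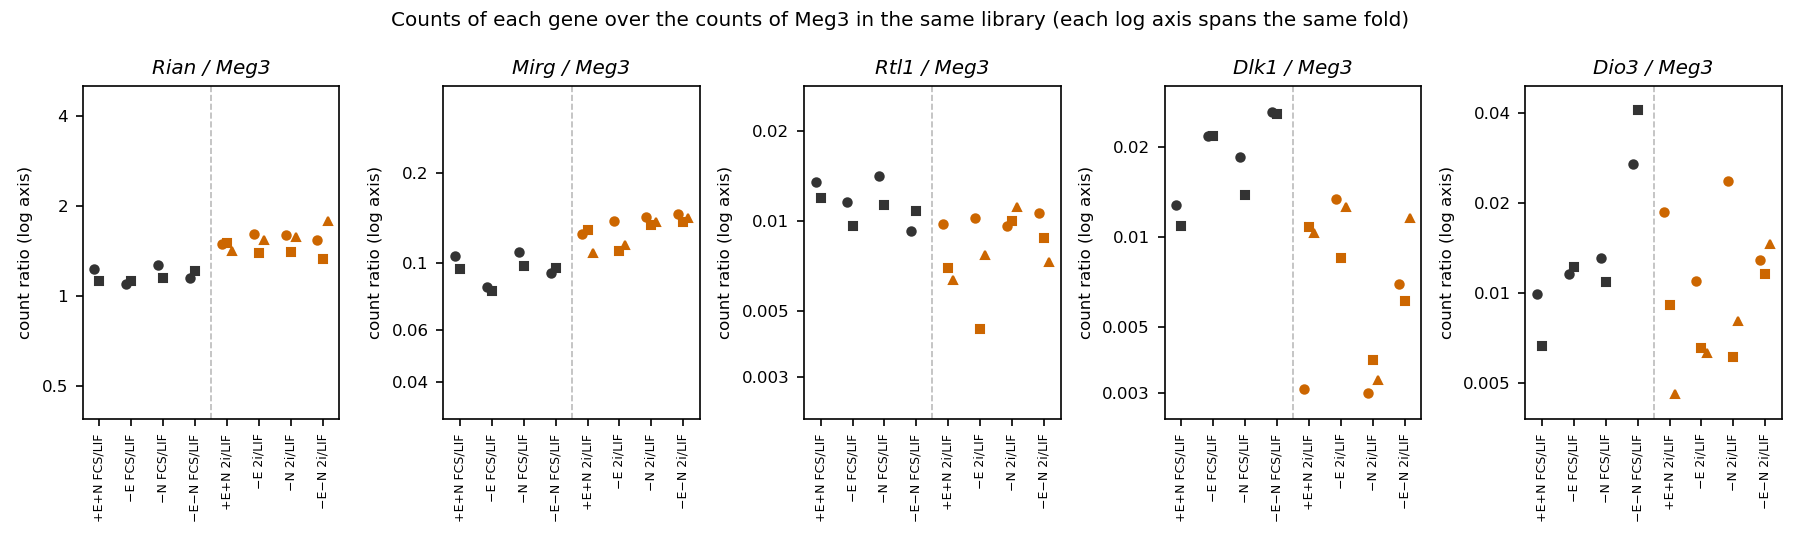
Counts of Rian, Mirg, Rtl1, Dlk1 and Dio3 divided by the counts of Meg3 in the same library (y axes, log scale, each spanning the same fold), by state and medium (x axis), with replicates 1, 2 and 3 as circle, square and triangle. The ratios of Rian and Mirg range 1.62-fold and 1.80-fold, those of Dlk1 and Dio3 8.64-fold and 8.89-fold.

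After the mean of each medium was taken off, the log2 CPM of Meg3 correlated with that of Rian at r = 0.977 and with that of Mirg at r = 0.956 over the 20 libraries, and of 11733 genes compared, each at 100 counts or more on average, none outside the domain was closer to Meg3 than these 2. The correlations are descriptions over libraries that share states, replicate numbers and depth. Rtl1 was closest to Mirg among the 6 (r = 0.908). Dio3 reached r = 0.695 with Rian, and Dlk1 at most 0.406 with any of the others. Outside the domain, the genes most like Meg3 were Nisch, Cdc42ep4 and Mpdz (r = 0.914, 0.909 and 0.896), those most like Rian were Mpdz, Eif4g3 and Cxadr (0.954, 0.939 and 0.936), and those most like Mirg were Eif4g3, Igf2os and Atp13a1 (0.952, 0.943 and 0.930). Dlk1 was most like Slc27a3, Tec and Clu (0.876, 0.872 and 0.863), and Dio3 most like Atp9b, Naxd and Irs2 (0.939, 0.927 and 0.923).

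Some genes around the domain were called in −E−N. Of 13 protein-coding neighbours, from Begain and Evl on the Dlk1 side to Mok and Dync1h1 on the Dio3 side, 12 were tested in each medium. In FCS/LIF, 1 of the 12 was called in −E and in −E−N, Mok, a kinase gene, which fell by 0.89 and 1.73 on the log2 scale, where 2.53% and 6.4% of all genes were called lower. In 2i/LIF, 0 were called in −E or −N, and in −E−N 3 of the 12 were, where 18.6% of all genes were: Evl rose (0.84) and Begain (-1.5) and Mok (-1.37) fell. The median log2 fold change of the 12 was -0.08 in −E−N in FCS/LIF and -0.18 in 2i/LIF. Inside the domain, 112 other rows are annotated, of which 102 were at 0 in every library. One, Gm26945, within Rian and on its strand, passed the filter in FCS/LIF, at 35 to 72 counts a library, and its reads cannot be assigned apart from those of Rian with certainty.

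Some of the factors known to act on methylation imprints changed in both media, the marks that set the 2 parental copies apart. Of 18 tested, 2 rose and 6 fell in −E−N in FCS/LIF, and 4 rose and 5 fell in −E−N in 2i/LIF. Of all genes, 12.4% rose and 6.4% fell in −E−N in FCS/LIF, and 9.06% rose and 9.56% fell in 2i/LIF. Zfp57, a zinc finger protein that keeps imprints methylated in ESCs, fell by 2.07 on the log2 scale in FCS/LIF and by 0.73 in 2i/LIF, and in −E in FCS/LIF by 1.56. Tet1 and Tet2, which oxidise methylated cytosine, fell by 1.73 and 2.20 in FCS/LIF and by 1.32 and 1.46 in 2i/LIF. Dppa3, which protects methylation in the zygote, rose in 2i/LIF by 2.08 in −N and 3.43 in −E−N, and Dnmt3l, a cofactor of the de novo methyltransferases, rose by 1.79 in −E−N. Aff3, known to bind the control region of this domain, rose by 1.36 in FCS/LIF and 2.03 in 2i/LIF. Of 9 genes of PRC2, a Polycomb complex that Meg3 RNA is known to bind, 5 fell in −E−N in FCS/LIF (Phf19, Mtf2, Eed, Jarid2 and Epop) and 0 were called in −E−N in 2i/LIF by edgeR, beside 6.4% and 9.56% of all genes called lower. The part of these lists in the levels of the 6 genes was not tested.

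Around the paternal proteins, the pathway genes changed in part. Of the Notch pathway, 14 genes were tested in FCS/LIF, and in −E−N 4 rose, among them Dlk2, the close relative of Dlk1 (2.43), Dll4 (1.83) and Notch3 (1.04), and 2 fell, Notch4 (-2.03) and Rbpj (-0.67). In 2i/LIF, 12 were tested, and in −E−N Dll1 rose (4.42) and Hes1 (-2.09) and Notch4 (-2.69) fell. These are 6 of 14 and 3 of 12 genes, where 18.8% and 18.6% of all genes were called. Among thyroid hormone genes, the receptor Thra (0.65) and its partner Rxra (0.91) rose in −E−N in FCS/LIF, and the receptor Thrb fell in 2i/LIF (-2.21). Of the retrotransposon-derived relatives of Rtl1, 5 were tested in 2i/LIF, and 4 rose in −N and in −E−N, where 1.61% and 9.06% of all genes rose. They were Peg10, itself an imprinted gene (4.62 and 6.92), Rtl8c (1.99 and 3.41), Rtl8b (1.00 and 2.45) and Rtl8a (0.77 and 1.41). In FCS/LIF 4 were tested, and of the comparisons with +E+N only −E−N had calls, where Peg10 (2.23) and Rtl8b (1.12) rose in −E−N.

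Markers of other cells moved with some of these groups, and their part in the results was not tested. The calls below are of −E−N against +E+N. There 12.4% of all genes were called higher and 6.4% lower in FCS/LIF, and 9.06% and 9.56% in 2i/LIF. The 8 trophectoderm markers summed to 40 to 50.6 TPM in +E+N and 151 to 223 in −E−N in FCS/LIF, with 7 of 8 tested called higher and 1 lower, and to 9.37 to 10.5 and 36 to 53.3 in 2i/LIF, with 4 of 6 called higher and 2 lower. The 8 primitive endoderm markers summed to 31.7 to 45 TPM in +E+N and 87.3 to 105 in −E−N in FCS/LIF, with 2 of 8 called higher, and to 3.08 to 4.68 and 7.29 to 9.29 in 2i/LIF, with 2 of 6 called higher and 1 lower. The 8 mesoderm markers summed to 1.64 to 2.2 TPM in +E+N and 3.68 to 4.89 in −E−N in FCS/LIF, with 1 of 4 called higher and 1 lower, and to 1.99 to 3.72 and 8.83 to 11.7 in 2i/LIF, with 2 of 4 called higher and 1 lower. The 8 neural markers summed to 91.7 to 92.6 TPM in +E+N and 105 to 123 in −E−N in FCS/LIF, with 3 of 7 called higher (Nes, Zic1 and Sox1) and 1 lower (Pax6). In 2i/LIF they summed to 30.6 to 40.8 and 14.7 to 18.3 TPM, with 2 of 5 called higher (Pax6 and Map2) and 1 lower (Tubb3). The 8 fibroblast markers, which bear on Meg3 because fibroblasts express it, summed in 2i/LIF to 35 to 40.4 TPM for +E+N and 47.4 to 57 for −E, and for the NrKO line to 60 to 74.3 with Dox and 59.2 to 86.4 without. Nearly all of this was Fbln1 (32.35 to 39.62 TPM in +E+N and 58.95 to 73.17 in −N), while the defining collagen genes Col1a1, Col1a2 and Col3a1 were at most at 0.51, 0.27 and 0.09 TPM in any 2i/LIF library, and Dcn and Postn were at 0 in all libraries of +E+N, −E and −N. In −E−N in 2i/LIF, Col1a2 (log2 fold change 3.06) and Fbln1 (1.00) were called higher, Thy1 (-2.04) was called lower, and Col1a1 was not called. In FCS/LIF the fibroblast sum was 16.2 to 19.4 TPM in +E+N and 22.5 to 24.2 in −E−N, where 4 of 7 tested were called higher.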

How the data were processed

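RNA-seq of 20 libraries was used. The authors mapped stranded read pairs to mm10 with STAR and deposited RSEM estimated counts for each gene, not normalized between libraries. The deposited TPM values are also from RSEM. RSEM divides reads shared by overlapping or similar genes by estimation. Per the labels, RNA was poly-A selected. The 92 spike-in rows were left out and counts were rounded to whole numbers. A gene entered a fit if every replicate of some state reached 20 counts. Fits used edgeR 4.0.16 (R 4.3.3, TMM, quasi-likelihood test, Benjamini-Hochberg adjustment over all genes), with the 4 states of a medium together, or all 8 groups for comparisons of media. Genes were called at an adjusted p below 0.01 with more than 1.5-fold change, and interactions and differences of responses on adjusted p alone. CPM values use library totals scaled by TMM, and correlations use log2 CPM with a prior count of 2. All 6 genes are reported, with the 3 genes most like each except Rtl1, and other genes come from lists. Some genes of these rules are not reported here. The members and lists were chosen with earlier results of these data known. Alternatives were DESeq2 1.42.0 without independent filtering, DESeq2 size factors, no count filter, the replicate number as a block, limma 3.58.1 on log2(TPM + 1) or on log2(TPM + 0.1), and each library left out. The steps were tested on simulated data. Gene positions are from GENCODE on mm10, and sequences from RefSeq on GRCm38.p6. Other samples of the series were not analysed here.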

Additional observations from a re-analysis of the deposited data

How the results depend on the processing

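Numbers called, out of the 6 genes, changed as follows from those of the report. Each percentage is the share of all genes called in the same fit. In FCS/LIF −E against +E+N the 1 became 2, with Dio3 added, under 4 settings. These were DESeq2 (6.7%), no count filter (5.5%), the replicate block (8.29%) and limma on log2(TPM + 0.1) (3.89%). In 2i/LIF −N against +E+N the 1 became 2 under DESeq2 (5.99%) and the block (7.77%). It became 3 without the filter (2.86%) and 0 under both limma fits (2.18% and 2.15%). In 2i/LIF −E−N against +E+N the 4 became 2 (Rian and Mirg) under both limma fits (14.6% and 16.1%). In FCS/LIF −E−N against +E+N the 2 became 3 under both limma fits (15.2% and 17.4%). In 2i/LIF −E−N against −E the 5 became 4 under limma on log2(TPM + 1) (9.79%). For the medium in +E+N the 3 became 0 under limma on log2(TPM + 1) (26.5%) and 1 (Rtl1) on log2(TPM + 0.1) (31.8%). Differences of responses between media were 0 in the report. Without the filter they became 3 for −E (2.22%), 3 for −N (2.55%) and 2 for −E−N (9.37%). Under the block they became 3 (4.51%), 1 (4.25%) and 1 (22.9%). DESeq2 gave 1 for −E (3.29%) and limma on log2(TPM + 1) gave 1 for −E−N (13.8%).

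Leaving out single libraries, the number called ranged from 2 to 4 in FCS/LIF −E−N against −N, 0 to 1 in FCS/LIF −E−N against −E, 0 to 2 in 2i/LIF −N, 2 to 4 in 2i/LIF −E−N against +E+N, 1 to 3 for the medium in +E+N and 1 to 2 for the medium in −E−N. In 2i/LIF −E−N against −E, where 5 were called, only the call of Dio3 was lost in some of these fits. The libraries that ended or added calls are named in the report. The sign of some estimates of genes not called turned. Over the libraries left out, in FCS/LIF −N the range was -0.17 to 0.33 for Meg3, -0.01 to 0.17 for Rtl1, -0.06 to 0.3 for Rian and -0.05 to 0.3 for Mirg. It was -0.02 to 0.2 (FCS/LIF) and -0.15 to 0.21 (2i/LIF) for Rtl1 in −E−N against −N, -0.07 to 0.01 for Meg3 in FCS/LIF −E−N against −E, -0.3 to 0.38 for Dlk1 in 2i/LIF −E, and -0.03 to 0.92 for Dio3 between media in +E+N. Meg3 was also at 0.02 in both limma fits, Dlk1 at -0.13 and -0.14 in the limma fits, and Dio3 at -0.11 under the block. The cause was not tested. DESeq2 size factors changed no call among the 66 values compared.

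Same-numbered libraries deviated together in part. Deviations from group means correlated at 0.0168 to 0.312 in FCS/LIF, where 2 replicates mirror each other and 4 of 6 distinct values were over 0.1, and at -0.0119 to 0.46 in 2i/LIF, with 16 of 18 pairs over 0.1, so the numbers were not taken as pairs. As a hint from the data, a 2i/LIF library correlated best with its own number in 33 of 36 comparisons. An FCS/LIF library did so in 24 of 24, which are not separate values since the 2 replicates mirror each other. With the number as a block, besides the changes above, Dlk1 was called in 2i/LIF −E−N against −N (1 of 6 in place of 0). Rian and Mirg had a called interaction in 2i/LIF (2 in place of 0). In these blocked comparisons 11.3% and 2.26% of all genes were called. Dlk1, Rtl1 and Dio3 in 2i/LIF have 14 to 118 counts a library, which limits their precision.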
